A study of Mus musculus with 6 samples.

Results

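The genes described here are 10 genes of transforming growth factor beta (TGF-beta) signalling in mouse natural killer (NK) cells: the ligand genes Tgfb1, Tgfb2 and Tgfb3, the receptor genes Tgfbr1, Tgfbr2 and Tgfbr3, and the SMAD genes Smad2, Smad3, Smad4 and Smad7. They were chosen by symbol, from the probe sets that the platform annotation maps to 1 gene, and all 10 were measured, each by 1 probe set, among 19943 genes. The arrays compare IL-18 generated NK cells (3 arrays) with unstimulated NK cells (3 arrays). For the IL-18 generated cells, NK1.1 isolated cells were cultured over night with IL-2 (300 IU) and IL-18 (25 ng/ml), and live NK1.1 positive, CD3 negative, CD11b negative, c-kit positive cells were sorted. Unstimulated cells were sorted as live NK1.1 positive, CD3 negative, CD11b positive, c-kit negative cells, and the labels do not state if they spent time in culture or with IL-2, nor the strain, sex and age of the mice. Effects of IL-18, of IL-2, of culture and of the different gates cannot be told apart in any difference below.

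TGF-beta ligands are secreted as latent precursors and, once released, bind a type II receptor (Tgfbr2) that activates a type I receptor (Tgfbr1). The type I receptor phosphorylates SMAD2 and SMAD3, which join SMAD4 and enter the nucleus, whereas SMAD7 blocks the receptor as part of a negative feedback. In NK cells TGF-beta is known as a brake on killing and on interferon gamma production.

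Each value below is a log2 difference from the gene's own median across 6 arrays. It can be compared between arrays and holds no expression level. Changes are IL-18 generated minus unstimulated, given with the standard error (SE) of a limma fit over all genes (n = 3 arrays per group throughout), and a gene passed at a Benjamini-Hochberg adjusted p below 0.05. Nothing says that the 3 preparations of a group came from different animals, so p-values measure the spread between these arrays. Arrays of the same group differed by a root mean square of 0.159 to 0.23, and arrays of different groups by 0.573 to 0.629. Of 6 genes of the sort markers, the 2 on which the gates differed moved with them, with a change of 2.79 for Kit (c-kit) and -5.32 for Itgam (CD11b). The other 4 differed as well, although both gates were NK1.1 positive and CD3 negative. Klrb1c (NK1.1) fell by 2.03 ± 0.11, and the CD3 chain genes Cd3d, Cd3e and Cd3g rose by 1.11 ± 0.14, 1.26 ± 0.21 and 1.60 ± 0.20 (limma adjusted p 3.27e-07, 0.000136, 0.000798 and 9.06e-05 in that order). The rounding of the deposited numbers gives a coarse view of level. Values stored in single precision are spaced more widely from 8 upwards, and 7 of the 10 genes lay on that wider spacing on all 6 arrays, against 31.8% of all probe sets, which places them at a log2 signal of at least 8. The other 3, Tgfb2, Tgfb3 and Tgfbr3, did not, so at least 1 of their arrays was below 8. A probe set below 8 would share the spacing by coincidence in 3.12% of cases. All 8 NK cell marker genes lay on it, as did 1 of 4 stromal and endothelial markers.

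Of the 10 genes, 2 were higher in IL-18 generated cells, 4 were lower and 4 did not pass. Over all genes tested, 19.7% were higher and 16.7% lower by the same rule, together 36.4%. Among genes of 1 probe set on the wider spacing the share that passed was 57.7%, and 4 of the 7 members on it passed. Tgfb3 and Tgfbr3 passed off it. The count of 6 in 10 is no result about these genes. The groups did not overlap for 8 of the 10, against 48.6% of all genes (22.9% higher and 25.7% lower). The share without overlap among genes on the wider spacing was not computed, so this count is no result about these genes either. The median change of the 10 was -0.25, and that of all genes tested was -0.064. With a change of at least 2-fold required as well, 0 were higher and 2 lower, against 3.62% and 3.24% of all genes (6.86% together). The exact two-sided permutation test of a single gene cannot go below 0.1 with 3 arrays against 3. It gave 0.1 for each of the 8 genes without overlap, 0.3 for Tgfb2 and 0.2 for Tgfbr2.

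**Figure D1:**
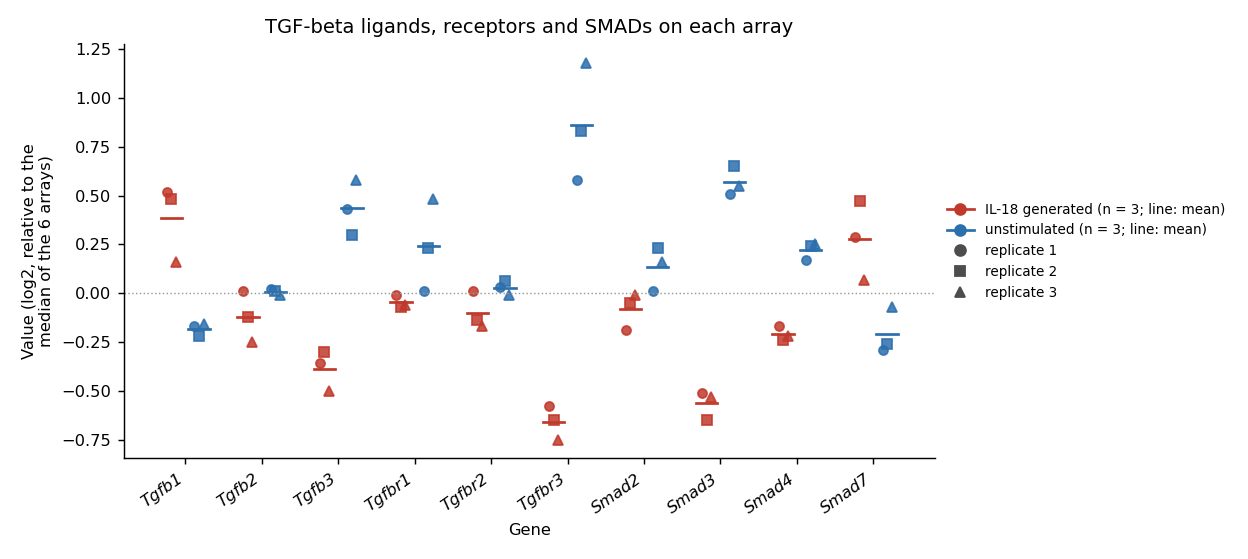
Values of the 10 genes on each array (vertical axis, log2 relative to the median of the 6 arrays), with IL-18 generated arrays in red to the left of unstimulated arrays in blue, symbols for replicates and lines for group means. Tgfb1 and Smad7 sit higher in red, Tgfb3, Tgfbr3, Smad3 and Smad4 lower, and the groups of Tgfb2 and Tgfbr2 overlap.

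The proximal promoters of Tgfb1 and Smad3 are shown because these genes moved in opposite directions and are the members that passed and have a window in the RefSeq promoter table, which held 5 of the 10 genes. Each is the 250 bases before the annotated start, 5′ to 3′ on the gene's strand (RefSeq, GRCm38.p6), at chr7:25686752-25687001 (+) for Tgfb1 and chr9:63757995-63758244 (-) for Smad3. Capitals mark the SP1 box GGGCGG on either strand.
Tgfb1: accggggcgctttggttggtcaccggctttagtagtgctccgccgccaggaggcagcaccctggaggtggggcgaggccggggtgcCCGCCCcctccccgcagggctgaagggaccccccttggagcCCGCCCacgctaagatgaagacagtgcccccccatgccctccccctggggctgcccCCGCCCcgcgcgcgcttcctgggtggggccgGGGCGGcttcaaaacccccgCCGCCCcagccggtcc
Smad3: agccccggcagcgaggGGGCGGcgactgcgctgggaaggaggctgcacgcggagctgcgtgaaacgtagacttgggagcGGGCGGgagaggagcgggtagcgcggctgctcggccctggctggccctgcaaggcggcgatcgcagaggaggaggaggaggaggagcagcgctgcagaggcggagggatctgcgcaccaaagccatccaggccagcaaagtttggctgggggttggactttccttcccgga
The SP1 box occurred 5 times in the Tgfb1 window and 2 times in the Smad3 window, and at least once in 32.7% of 32851 promoter windows of that length. The letters of 3 other motifs were searched on both strands and occurred in neither window: the AP-1 site TGANTCA (in 6.75% of all windows), the SMAD box CAGAC (42.2%) and the E-box CACGTG (6.02%). G and C made up 75.2% of the Tgfb1 window and 69.2% of the Smad3 window, against a median of 52.4%. These matches describe letters in a window and say nothing of binding.

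Among the ligands, Tgfb1 rose and Tgfb3 fell. Tgfb1, the main ligand of immune cells, had values of 0.52, 0.48 and 0.16 on the IL-18 arrays, against -0.17, -0.22 and -0.16 on the unstimulated arrays. The IL-18 arrays were all higher, with replicate 3 well below the other two. The change was 0.57 ± 0.10, or 1.48-fold, with a limma adjusted p of 0.00108. Tgfb3, a ligand best known from development and from T helper cells, had values of -0.36, -0.30 and -0.50 on the IL-18 arrays, against 0.43, 0.30 and 0.58 on the unstimulated arrays. All IL-18 arrays were lower, by a gap of 0.60 between the nearest arrays of the groups. The change was -0.82 ± 0.09 (1.77-fold lower, limma adjusted p 5.17e-05).

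Tgfb2, a ligand that depends on a coreceptor for efficient receptor binding, had values of 0.01, -0.12 and -0.25 on the IL-18 arrays, against 0.02, 0.01 and -0.01 on the unstimulated arrays. Its groups overlapped, and the change of -0.12 ± 0.08 did not pass (limma adjusted p 0.274), with a 95% interval from -0.31 to 0.06. On at least 1 array it lay below a log2 signal of 8, so an absent transcript cannot be told apart from an unchanged one. The difference between the changes of Tgfb3 and Tgfb1 was -1.39 ± 0.09. For such differences between genes, here and below, the SE is not from limma. It comes from the spread of the 3 arrays per group for that pair alone, and is itself imprecise. The groups did not overlap for Tgfb3 minus Tgfb1 (exact permutation p 0.1, two-sided, the smallest possible). That outcome was fixed, because Tgfb1 rose and Tgfb3 fell, each without overlap. With each gene centred on its own median, the difference does not show which ligand had more transcript.

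Of the receptors, Tgfbr3 fell and the 2 signalling receptors did not pass. Tgfbr3 encodes betaglycan, a coreceptor that binds all 3 ligands and presents them to the type II receptor. Its values were -0.58, -0.65 and -0.75 on the IL-18 arrays, against 0.58, 0.83 and 1.18 on the unstimulated arrays. The groups stood 1.16 apart at their nearest arrays, and the unstimulated arrays were spread more widely (SD 0.30) than the IL-18 arrays (SD 0.09). The change of -1.52 ± 0.13, or 2.87-fold lower, was the largest of the 10 (limma adjusted p 8.39e-06), and 2.78% of all genes had a larger absolute change.

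Tgfbr1, the type I receptor, had values of -0.01, -0.07 and -0.06 on the IL-18 arrays, against 0.01, 0.23 and 0.48 on the unstimulated arrays. The groups were 0.03 apart, and unstimulated replicate 1 lay next to the IL-18 arrays. The change of -0.29 ± 0.11 did not pass (limma adjusted p 0.065, 95% interval -0.53 to -0.04). It passed without unstimulated replicate 1 (-0.40, limma adjusted p 0.0116) and with array weights (limma adjusted p 0.0442), and over 14 alternatives the adjusted p ran from 0.0116 to 0.219. Tgfbr2, the type II receptor, had values of 0.01, -0.14 and -0.17 on the IL-18 arrays, against 0.03, 0.06 and -0.01 on the unstimulated arrays. Its groups overlapped and the change was -0.12 ± 0.08 (limma adjusted p 0.248). The 95% interval of Tgfbr2, from -0.30 to 0.05, corresponds to 0.81 to 1.04 times the unstimulated value. The change of Tgfbr3 minus that of Tgfbr2 was -1.40 ± 0.19, and minus that of Tgfbr1 it was -1.24 ± 0.06 (SEs not from limma). Neither difference overlapped between groups (exact permutation p 0.1 each, two-sided). In all, 4 pairs of the 10 genes were compared in this way, and all 4 gave 0.1, also after Benjamini-Hochberg adjustment. All 4 outcomes were fixed by the values of the single genes. For Tgfb3 and Tgfb1 the reason is given above. In the other pairs, the gap between groups of Tgfbr3 (1.16) or Smad3 (1.02) exceeded the whole range of the second gene over the arrays. These p-values therefore add nothing to the changes of the single genes.

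Smad3 and Smad4 fell, Smad7 rose and Smad2 did not pass. Smad3, a receptor-activated SMAD that binds DNA, had values of -0.51, -0.65 and -0.53 on the IL-18 arrays, against 0.51, 0.65 and 0.55 on the unstimulated arrays. Both groups were tight and stood 1.02 apart. The change of -1.13 ± 0.08, or 2.19-fold lower, had the lowest adjusted p of the 10 (limma, 1.71e-06). Smad2, the other receptor-activated SMAD of this branch, had values of -0.19, -0.05 and -0.01 on the IL-18 arrays, against 0.01, 0.23 and 0.16 on the unstimulated arrays. The groups were 0.03 apart and the change of -0.22 ± 0.09 did not pass (limma adjusted p 0.076, 95% interval -0.41 to -0.02). Without unstimulated replicate 1 it passed (-0.27, limma adjusted p 0.0449). Over its alternatives the adjusted p ran from 0.0449 to 0.236. The change of Smad3 minus that of Smad2 was -0.91 ± 0.09 (SE not from limma), and the difference did not overlap between groups (exact permutation p 0.1, two-sided). That outcome was fixed, because the Smad3 gap of 1.02 exceeded the whole range of the Smad2 values, from -0.19 to 0.23.

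Smad4, the shared partner of the receptor-activated SMADs, had values of -0.17, -0.24 and -0.22 on the IL-18 arrays, against 0.17, 0.24 and 0.25 on the unstimulated arrays. The groups were tight and did not overlap, and the change was small at -0.43 ± 0.07 (1.35-fold lower, limma adjusted p 0.000717). Smad7, the inhibitory SMAD, had values of 0.29, 0.47 and 0.07 on the IL-18 arrays, against -0.29, -0.26 and -0.07 on the unstimulated arrays. The change of 0.48 ± 0.11, or 1.40-fold, passed (limma adjusted p 0.00488), and replicate 3 of each group lay nearest the other group.

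**Figure D2:**
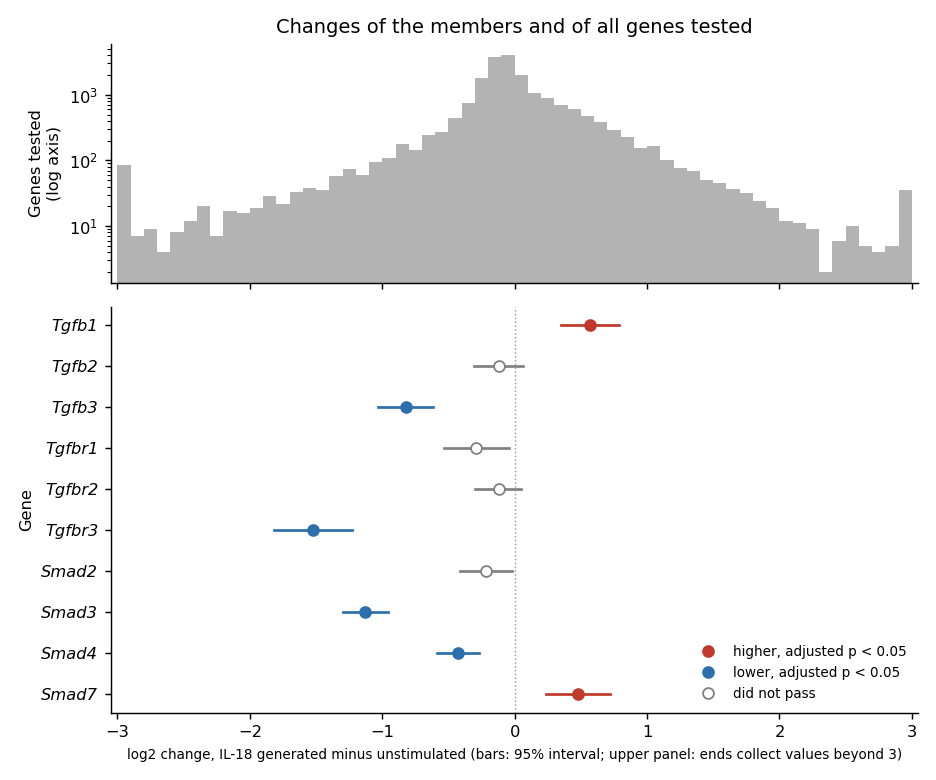
The upper panel shows how many of the 19943 genes had each log2 change (log axis, bins of 0.1, larger changes in the end bins), and the lower panel the change of each of the 10 genes with its 95% interval. Tgfbr3 at -1.52 and Smad3 at -1.13 lie farthest from 0, and the 4 genes with open symbols did not pass.

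Around these genes, 9 lists of the wider pathway were examined, with 94 of 97 genes measured. Of the 94, 25 rose, 27 fell and 42 did not pass, and their median change was -0.10. Over all genes 19.7% rose and 16.7% fell, or 36.4% together, and the counts in the lists below stand against the same shares. All 9 lists held genes that fell, and all but the nuclear partners of SMADs held genes that rose.

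The list of SMAD inhibitors and turnover factors held Pmepa1, the largest increase among the 94 genes. Of its 14 members, 5 rose and 1 fell, the other 8 did not pass, and the median change was 0.01. Pmepa1, itself induced by TGF-beta and encoding a membrane protein that keeps receptor-activated SMADs from the receptor, had values of 2.13, 2.20 and 1.24 on the IL-18 arrays, against -1.24, -1.57 and -1.47 on the unstimulated arrays. IL-18 replicate 3 was the lowest of its group and still far above the unstimulated arrays. The change was 3.28 ± 0.21, or 9.75-fold (limma adjusted p 1.11e-06). Skil, which encodes the SMAD corepressor SnoN, had 0.87, 0.92 and 0.69 on the IL-18 arrays, against -0.73, -0.69 and -0.76 on the unstimulated arrays. Its groups were tight and well apart, with a change of 1.55 ± 0.08 (limma adjusted p 3.12e-07).

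Tgif1, another SMAD corepressor, rose by 1.20 ± 0.09. Ldlrad4, a relative of Pmepa1 that also holds back SMAD2 and SMAD3, rose by 0.61 ± 0.15, from IL-18 values of 0.67, 0.61 and 0.05 against -0.15, -0.29 and -0.05 on the unstimulated arrays. IL-18 replicate 3 of Ldlrad4 lay close to the unstimulated arrays. The fifth increase was Usp15, at 0.30 ± 0.10, a deubiquitinase that acts in favour of the pathway, unlike the other four. Its groups overlapped. The call of Usp15 ended on leaving out IL-18 replicate 2 or 3 (limma adjusted p 0.148 and 0.133) or unstimulated replicate 1 or 3 (0.166 and 0.102), and after quantile normalization (0.0726).

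The gene that fell was Zfyve9, which encodes SARA, an anchor that brings SMAD2 and SMAD3 to the receptor and so favours signalling. It had -0.73, -0.75 and -0.99 on the IL-18 arrays, against 0.73, 1.02 and 1.75 on the unstimulated arrays. The groups were far apart and unstimulated replicate 3 was the highest array. The change was -1.99 ± 0.21 (3.97-fold lower, limma adjusted p 3.18e-05). Smurf2, a ubiquitin ligase for receptor and SMADs, had a change of -0.31 ± 0.11 that did not pass (limma adjusted p 0.0522). It passed without unstimulated replicate 1 (-0.44, limma adjusted p 0.00412) and with the variance options of limma (0.0463 with a trend, 0.0445 when robust) and with the replicate number as a block (0.0254), each of which raises the count of decreases in this list to 2.

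**Figure D3:**
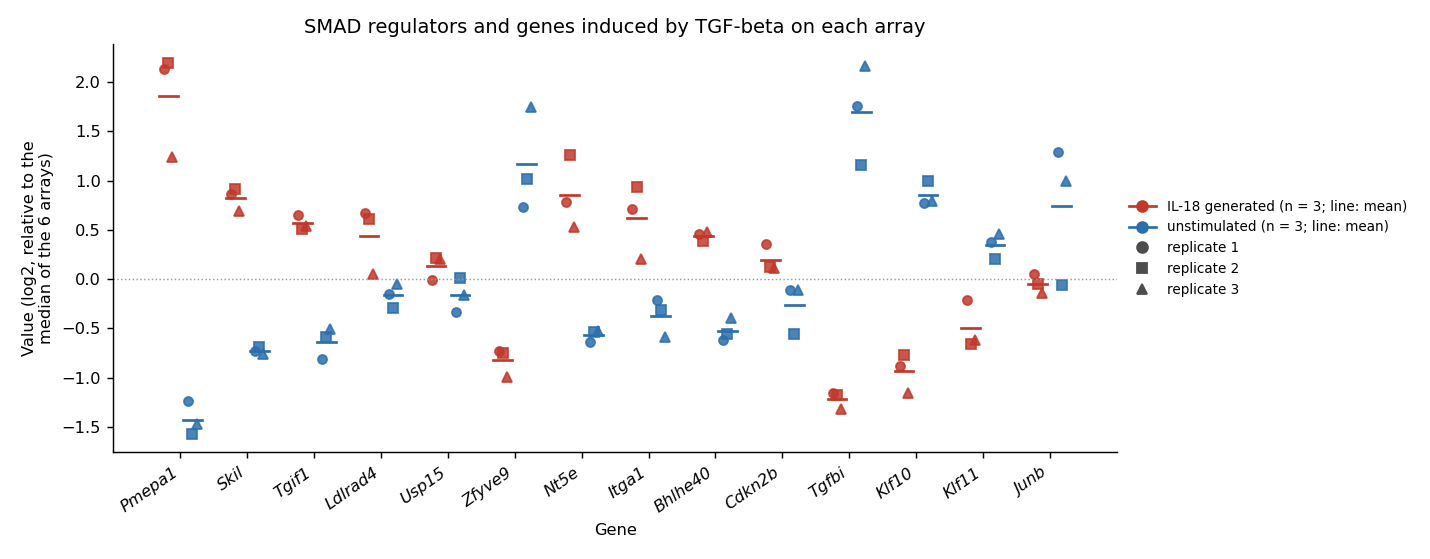
Values on each array (log2 relative to the median of the 6 arrays) of the SMAD regulators that passed and of the TGF-beta induced genes that passed, IL-18 generated arrays in red to the left of unstimulated arrays in blue. Pmepa1 lies between 1.24 and 2.20 on the red arrays and between -1.57 and -1.24 on the blue ones, while Zfyve9, Tgfbi and Klf10 lie lower in red.

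Genes listed as induced by TGF-beta, in a list not limited to NK cells, moved in both directions. Of 11 measured, 4 rose and 4 fell, 3 did not pass, and the median change was -0.16. Nt5e, the ectoenzyme that makes adenosine (CD73), rose by 1.43 ± 0.15 and Itga1, the alpha 1 integrin chain found on tissue-resident NK cells, by 0.99 ± 0.17. Bhlhe40, a transcription factor, rose by 0.96 ± 0.08 and Cdkn2b, a cell cycle inhibitor, by 0.45 ± 0.13. Cdkn2b did not pass without IL-18 replicate 1 (limma adjusted p 0.0687). For Itga1 the values were 0.71, 0.94 and 0.21 on the IL-18 arrays, against -0.21, -0.31 and -0.59 on the unstimulated arrays, without overlap.

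Tgfbi, a secreted matrix protein named for its induction by TGF-beta, fell furthest in this list. Its values were -1.16, -1.18 and -1.32 on the IL-18 arrays, against 1.76, 1.16 and 2.16 on the unstimulated arrays, and the change was -2.91 ± 0.20 (limma adjusted p 1.37e-06). Klf10, a transcriptional repressor of the early TGF-beta response, fell by 1.79 ± 0.11 and its relative Klf11 fell by 0.85 ± 0.12. The fourth decrease was Junb, an AP-1 subunit, at -0.79 ± 0.27. Its unstimulated values of 1.29, -0.06 and 1.00 were spread widely and overlapped the IL-18 values of 0.05, -0.05 and -0.14. The call of Junb ended under 9 of 14 alternatives, among them leaving out any array other than unstimulated replicate 2, with limma adjusted p up to 0.174. Itgae, the alpha E integrin chain, changed by -0.16 ± 0.09, which did not pass (limma adjusted p 0.207).

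Of 11 genes listed as repressed by TGF-beta, not all of them in lymphocytes, 2 rose and 8 fell, 1 did not pass, and the median change was -0.68. The increases were Ifng by 2.10 ± 0.16 and Myc by 1.77 ± 0.12. Gzma, granzyme A, fell by 4.10 ± 0.20 and Prf1, perforin, fell by 2.17 ± 0.13. Of the 8 decreases, 5 were also among the NK cell markers, all 8 of which fell.

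Among 12 genes of latency and activation, 3 rose, 3 fell and 6 did not pass. Furin, the protease that cleaves the TGF-beta precursors, had 0.90, 0.78 and 0.79 on the IL-18 arrays, against -0.78, -0.95 and -1.05 on the unstimulated arrays. Its change of 1.75 ± 0.09 (3.37-fold, limma adjusted p 2.11e-07) was far larger than the spread within groups. Itgav, the integrin chain that binds latent TGF-beta, rose by 0.44 ± 0.10 and Lrrc32 (GARP), which holds latent TGF-beta on the cell surface, by 0.42 ± 0.09. Thbs1, thrombospondin, an activator of latent TGF-beta, fell by 0.98 ± 0.09, and Nrros, which tethers latent TGF-beta on myeloid cells, fell by 0.47 ± 0.09. Mmp9, a matrix protease, fell by 0.54 ± 0.15 and did not pass without IL-18 replicate 2 (-0.46, limma adjusted p 0.0578). The integrin genes Itgb6 and Itgb8, whose products activate TGF-beta in epithelia and other tissues, had changes of -0.05 and 0.05 and did not pass.

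Of 7 coreceptors and receptor-binding proteins, 2 rose, 2 fell and 3 did not pass. Cd109, a membrane protein that dampens TGF-beta signalling, rose by 0.75 ± 0.10, and Fkbp1a, which holds type I receptors inactive, by 0.62 ± 0.10. Nrp1, neuropilin 1, fell by 0.56 ± 0.14 and Acvrl1, another type I receptor, fell by 0.42 ± 0.10. Among 6 nuclear partners of SMADs, 3 fell and 3 did not pass. Runx1, a lineage transcription factor, had -1.01, -0.74 and -0.69 on the IL-18 arrays, against 0.69, 0.74 and 0.73 on the unstimulated arrays, a change of -1.53 ± 0.09 (limma adjusted p 6.85e-07). The acetyltransferase genes Crebbp and Ep300 fell by less, with changes of -0.49 ± 0.07 and -0.47 ± 0.08. The value of Runx3 was -0.04 ± 0.08 and did not pass.

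In the branch that does not use SMADs, 4 of 10 genes rose, 2 fell and 4 did not pass. Map2k3 rose by 1.01 ± 0.07 whereas Map2k6, its close relative upstream of the same stress kinase, fell by 0.91 ± 0.10. The kinase gene Map3k7 (TAK1) rose by 0.39 ± 0.09 and its adaptors Tab2 and Tab1 by 0.50 ± 0.08 and 0.27 ± 0.09. The call of Tab1 ended without IL-18 replicate 1 or 3 (limma adjusted p 0.0742 and 0.158) and without unstimulated replicate 1 or 3 (0.137 and 0.0982). Daxx, a receptor adaptor, fell by 0.38 ± 0.09.

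In the sister pathways of activins and bone morphogenetic proteins (BMPs), changes ran from -0.79 to 0.76 for ligands and from -0.57 to 0.48 for receptors and SMADs. Of 11 ligand genes, Bmp7 rose by 0.76 ± 0.21 and Bmp2 by 0.42 ± 0.10, Gdf11 fell by 0.79 ± 0.18 and Bmp4 fell by 0.42 ± 0.08, and 7 did not pass. Bmp7 did not pass without IL-18 replicate 3 (0.58, limma adjusted p 0.0545), which leaves 1 increase, nor with robust moderation (0.0596). Of 12 receptor and SMAD genes, 3 rose, 2 fell and 7 did not pass. The type I receptor genes Acvr1b, Acvr1 and Bmpr1a rose by 0.48 ± 0.07, 0.46 ± 0.08 and 0.40 ± 0.11. Bmpr1a lost its call without IL-18 replicate 1 (limma adjusted p 0.0698) or unstimulated replicate 3 (0.0716). Bmpr2, the BMP type II receptor, fell by 0.57 ± 0.08 and Smad5, a SMAD of the BMP branch, fell by 0.46 ± 0.08.

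**Figure D4:**
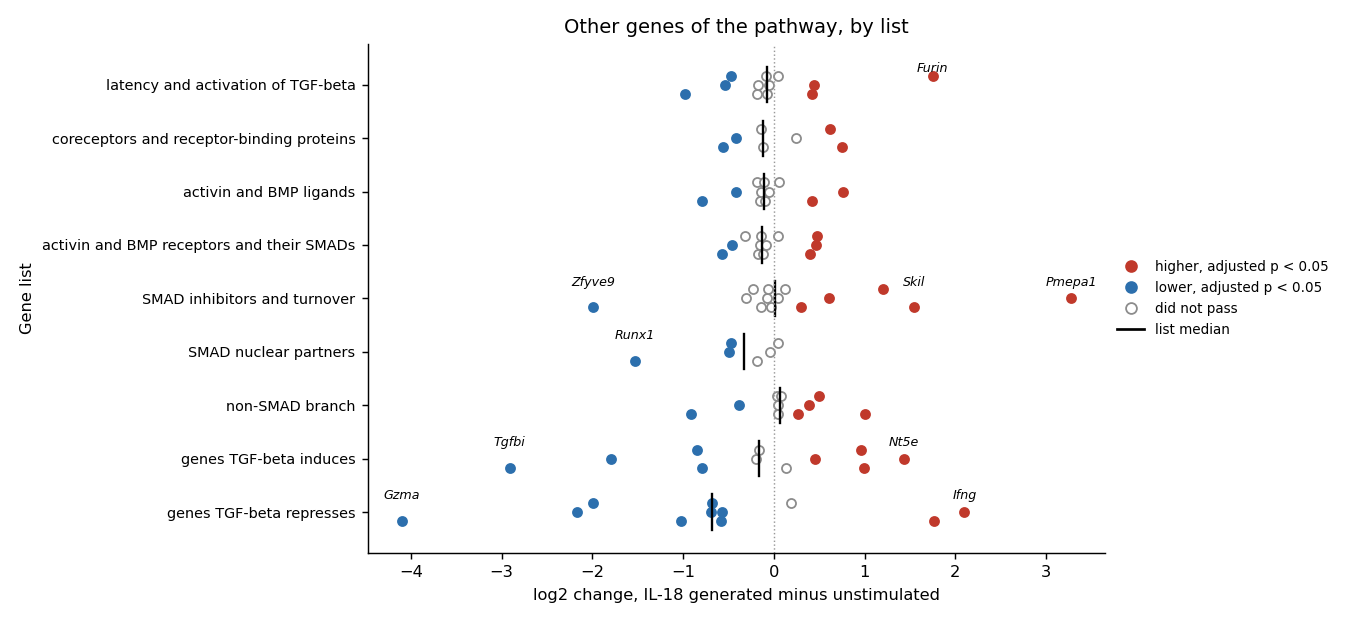
Change of each measured gene (horizontal axis, log2, IL-18 generated minus unstimulated) in 9 pathway lists, filled red or blue where it passed and open where it did not, with a bar at the list median. List medians run from -0.68 to 0.07, while Pmepa1 at 3.28 and Gzma at -4.10 lie farthest out.

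Markers of other cell types moved in the same arrays. All 7 measured monocyte and macrophage markers fell (median -3.14), as did all 9 neutrophil markers (median -3.09) and all 5 basophil and mast cell markers (median -2.70). The basophil and mast cell count was 3 with a variance trend and 1 with robust moderation. Of 6 T cell markers other than CD3 chains, 0 passed with limma (1 had an unadjusted p below 0.05), whereas the 3 CD3 chain genes rose, as given above. In bulk RNA, fewer cells of a type and less RNA per cell cannot be told apart. Means of the monocyte list were -1.70, -1.69 and -1.69 on the IL-18 arrays, against 1.63, 1.54 and 2.17 on the unstimulated arrays. Those of the neutrophil list ran from -1.39 to -1.07 on the IL-18 arrays, against 1.22 to 2.63 on the unstimulated arrays. Basophil and mast cell means were -2.51, -0.42 and -2.52 on the IL-18 arrays, against 1.63, 2.11 and 0.42 on the unstimulated arrays, so IL-18 replicate 2 stood apart from the rest of its group. The 7 monocyte markers were all highest on unstimulated replicate 3, as were Tgfbr3, Tgfb3 and Smad4 among the 4 members that fell, and Zfyve9 and Tgfbi. For Smad4 the margin over unstimulated replicate 2 was slight (0.25 against 0.24, group SD 0.04). Over all genes called lower, 32.2% were highest on unstimulated replicate 3. Smad3 was highest on unstimulated replicate 2, where all 9 neutrophil markers and all 5 basophil markers were highest, as were 44.6% of all genes called lower. Of the monocyte markers only Cd68 lay on the rounding step of a log2 signal of at least 8 on all arrays. That rule includes the IL-18 arrays, where these markers were lower, so missing it gives no level on the unstimulated arrays. The part of these cells in the changes of Tgfbr3, Tgfb3, Smad3, Smad4, Zfyve9, Tgfbi and Nrros was not tested.

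**Figure D5:**
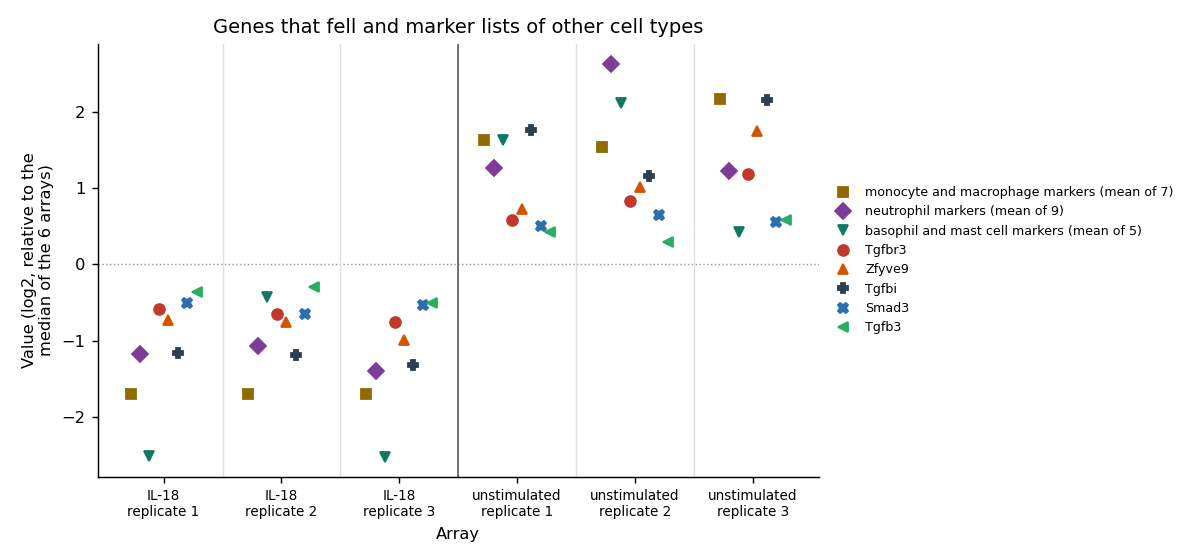
Values on each array (log2 relative to the median of the 6 arrays) of 5 genes that fell and the mean of 3 marker lists of other cell types, IL-18 generated arrays left of the dark line and unstimulated arrays right of it. The monocyte mean is 2.17 on unstimulated replicate 3, where Tgfbr3, Zfyve9 and Tgfbi are also highest, and the neutrophil mean is highest on unstimulated replicate 2.

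Likeness of pattern was measured as the root mean square difference of array values over the 6 arrays, for the member with the largest increase and the one with the largest decrease. Other members and genes with provisional names were left out, so a gene left out may lie nearer than those given. Nearest to Tgfb1 were Prdx6-ps2 at 0.072, Cwc15 at 0.076 and Hlf at 0.078. Nearest to Tgfbr3 were Nxpe4 at 0.086, Tmem26 at 0.093 and Lilra5 at 0.106. Prdx6-ps2 is named as a pseudogene and can share probes with its parent gene, so its value is uncertain.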

How the data were processed

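Total RNA of 6 sorted cell preparations was column purified, biotin labelled and hybridised to 1-colour Affymetrix arrays, per the labels' protocols. The table deposited by the authors holds log2 values, 1 per probe set and array. The log base was read from the values (their widest range within a probe set, 7.77, exceeds the 4.82 that log10 of a 16-bit scanner allows, and 44 probe sets on the rounding step of numbers of at least 8 range wider than the 3.09 that natural logs allow there). Neither labels nor table name the authors' background correction, normalization or genome build. Each probe set is centred on its median over the arrays, and no filter on dim genes was applied before the tests. Array number limits the precision.

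Of 28815 probe sets, 21788 had 1 symbol, 1597 several and 5430 none listed. Genes are means of probe sets. The comparison was fitted in R 4.3.3 with limma 3.58.1 (lmFit, eBayes, no covariate, 6 arrays, adjusted over 19943 genes) and checked on simulated data. Intervals use limma's moderated degrees of freedom. Rounding steps were matched within 0.15 of a step. The main fit was planned without a block. Correlations of deviations were 0.238, 0.007 and -0.02 for arrays of the same replicate number, and -0.293 to 0.248 for the others. With 3 arrays per group these cannot settle if preparations were paired. Members and lists were chosen with earlier results of these data known. Named are the members, up to 2 increases and 2 decreases per pathway list, genes nearest in pattern, and, chosen after their values were seen, genes completing counts of 5 or fewer, Smurf2, Klrb1c, the CD3 chains, Itgb6, Itgb8, Itgae and Runx3. The marker lists' remaining results were: B cell 5 of 5 lower, dendritic cell 4 lower and 1 higher, platelet 4 lower and 1 higher, stromal and endothelial 1 higher of 4. Promoter sequences are RefSeq's, and 1811 of 1811 overlapping windows on opposite strands were reverse complements. Python 3.11.15, pandas 2.3.3, numpy 2.4.6 and matplotlib 3.10.9 were used.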

Additional observations from a re-analysis of the deposited data

How the results depend on the processing

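Each member was recomputed under 14 alternatives: a variance trend, robust moderation, array weights, quantile normalization, median-centred arrays, 2 treatments of probe sets, a replicate block, and each array left out in turn. No member changed direction, and Tgfb1, Tgfb3, Tgfbr3, Smad3, Smad4 and Smad7 kept their calls in all 14. Each member has 1 probe set, so the 2 treatments of probe sets could not change its estimate and add no check. With the replicate block Tgfbr1 passed (-0.29, limma adjusted p 0.0488), and with array weights it passed too (-0.30, limma adjusted p 0.0442). Leaving out 1 array, its change ran from -0.40 to -0.17 and that of Smad2 from -0.27 to -0.16, and both passed without unstimulated replicate 1, which raised the count of members lower from 4 to 6. The block also gave Smurf2 a call (limma adjusted p 0.0254) and changed no other member's or named gene's. Requiring a 2-fold change left 0 members higher and 2 lower, 721 genes higher and 647 lower in all, and 8 higher and 8 lower in the pathway lists. Of 63 other named genes, 55 kept their call under every alternative and 7 lost it under at least 1 (Mmp9, Bmp7, Usp15, Bmpr1a, Tab1, Cdkn2b and Junb), while Smurf2 gained one. Apart from leaving out arrays, the causes were not tested. Basophil marker calls were 3 of 5 with a variance trend and 1 of 5 when robust, and B cell calls dropped to 2 of 5 under some alternatives. Values near 0 may reflect transcripts below detection, which centred values cannot show.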

Other observations

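IL-18 replicate 3 was the lowest of the IL-18 arrays for both members that rose, Tgfb1 and Smad7, and for Pmepa1, Skil and Ldlrad4 among 5 SMAD regulators that rose, and Nt5e, Itga1 and Cdkn2b among 4 induced genes that rose. In the other pathway lists, most genes that rose were lowest on replicate 1 or 2. Only Cd109, Acvr1 and Map2k3 were lowest on replicate 3, so the order was not shared across the pathway. Over the 3935 genes called higher, replicate 3 was the lowest in 18.2%, replicate 1 in 38.4% and replicate 2 in 43.4%. This order of arrays was noticed after the values were seen and was not tested.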
